A study of Homo sapiens with 2 samples.

Results

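*ATF4* and its target genes, with the cytosolic aminoacyl-tRNA synthetases, were followed in human corneal epithelial cells (HCECs) that received a miR-184 mimic. The set was given as 38 named genes, and a gene was measured where an array feature carried its symbol and no other. For 36 of the 38 genes such a feature was found, among 22368 genes in all, and each of the 36 was measured by 1 feature. *GPT2*, a mitochondrial alanine aminotransferase, had no feature named for it. The feature of *ATF5*, a relative of ATF4, also carries the symbol of a microRNA, so it was not counted as measured. It read 5.29 in both arrays.

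HCECs are corneal epithelial cells immortalized with SV40, and they were grown in DMEM/F12 with fetal bovine serum, insulin and EGF. One culture received 50 nM of a miR-184 mimic, which is a synthetic RNA that supplies the mature microRNA, and the other 50 nM of a negative control (NC) by the same lipid transfection, and RNA was taken at 48 h. There was 1 array per condition, so no value here has a replicate, no test was possible and no difference carries an error. What miR-184 did and what set the 2 cultures apart otherwise cannot be told apart. Values are log2 signals normalized by the authors, and each difference given is miR-184 minus NC on that scale. All genes together had a median difference of 0.04. The SD over genes was 0.46 in the upper part of the signal range (at or above the median) and 0.20 in the lower, a spread over genes that is not a replicate error. Of 11 epithelial markers measured, 6 were at or above the median signal across all genes, among them the keratins *KRT5*, *KRT8* and *KRT18* and the adhesion genes *CDH1* and *EPCAM*. The cornea-specific keratins *KRT3* and *KRT12* and the eye regulator *PAX6* were below it, as were all 7 markers of stromal cells and fibroblasts.

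ATF4 is a transcription factor of the integrated stress response. When amino acids are short, or proteins misfold in the endoplasmic reticulum, kinases phosphorylate the initiation factor eIF2, most translation slows, and the *ATF4* message is translated more. Because ATF4 is controlled to a great extent at translation and protein stability, the amount of its mRNA need not follow the amount of its protein. ATF4 binds a composite site (the C/EBP-ATF element) and raises genes that import and make amino acids, load them onto tRNA and, later, adjust or end the response. The aminoacyl-tRNA synthetases join each amino acid to its tRNA.

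The sequence supplied by the mimic, as RefSeq gives mature miR-184 (GRCh38.p14, chr15:79209840-79209861, plus strand), is shown because it is what the treated culture received. The capitals mark the seed, bases 2 to 8, through which a microRNA pairs with its targets.
hsa-miR-184: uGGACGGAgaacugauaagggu

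The core of the C/EBP-ATF element, TGATGNAA, was looked for on both strands in RefSeq promoter windows (GRCh38.p14) that run from 250 bases before to 50 bases after a gene's start. Of the 36 measured genes 30 had a window, and 9 of these held the core, against 3.62% of 35116 windows in all. It was found in 6 of 10 tRNA synthetase windows and in 3 of the 20 others (*ASNS*, *CHAC1* and *ATF3*). Of the 9 matches 7 read TGATGCAA in the direction of the motif. The 7 matches that begin before the gene's start are shown, and those that begin after it are given by position. They are written 5′ to 3′ on the strand of the gene, with the match in capitals, and a match on the other strand appears as TTNCATCA.
*ASNS* (chr7:97872458-97872487, minus strand): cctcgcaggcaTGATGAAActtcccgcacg
*ATF3* (chr1:212565205-212565234, plus strand): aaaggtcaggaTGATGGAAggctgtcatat
*CHAC1* (chr15:40953251-40953280, plus strand): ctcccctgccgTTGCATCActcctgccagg
*AARS1* (chr16:70289675-70289704, minus strand): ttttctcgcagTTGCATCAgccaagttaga
*CARS1* (chr11:3057407-3057436, minus strand): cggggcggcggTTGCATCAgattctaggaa
*IARS1* (chr9:92293692-92293721, minus strand): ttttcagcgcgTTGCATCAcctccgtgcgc
*MARS1* (chr12:57488053-57488082, plus strand): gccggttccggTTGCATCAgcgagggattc
The core stood at -68 to -61 from the gene start in *ASNS*, at -187 to -180 in *AARS1* and across the start itself in *CARS1* and *MARS1*. *NARS1* and *TARS1* held it after the start, at 15 to 22 and at 3 to 10. A match describes letters in a window and does not show that ATF4 was bound there.

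Across the set the differences were small. With miR-184, 2 of the 36 genes were higher by 1.5 times or more, as were 3.74% of all genes, and 1 was lower by 1.5 times or more, as were 4.16% of all genes. Most of the set (34 of 36) had a signal in the upper part of the range, where these shares were 6.24% and 7.74%, so in the values as deposited the counts in the set are near those of other genes. The median difference of the 36 genes was 0.16, with 24 above 0 and 12 below. All genes in the upper part of the range had a median of -0.02 and 46.4% above 0. Over the whole range the median was 0.04, and 55.4% were above 0. None of the 36 was past 2 times, which 0.984% of all genes were upwards and 1.35% downwards. How many were called higher followed the scaling of the arrays. After quantile normalization 5 were higher and 1 lower, beside 4.05% and 3.87% of all genes and 7.31% higher in the upper part of the range. With the trend of the difference with signal removed 3 were higher and 1 lower, beside 3.76% and 4.03% of all genes and 6.75% higher in the upper part. With the median difference of all genes set to 0 they were 1 and 1, beside 3.15% and 4.81% of all genes and 5.36% higher in the upper part. The members nearest to the threshold of 0.585 on the log2 scale were *PSAT1* (0.599) just inside and *CARS1* (0.559) just outside on the upper side, and *AARS1* (-0.663) and *DDIT3* (-0.518) on the lower.

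**Figure D1:**
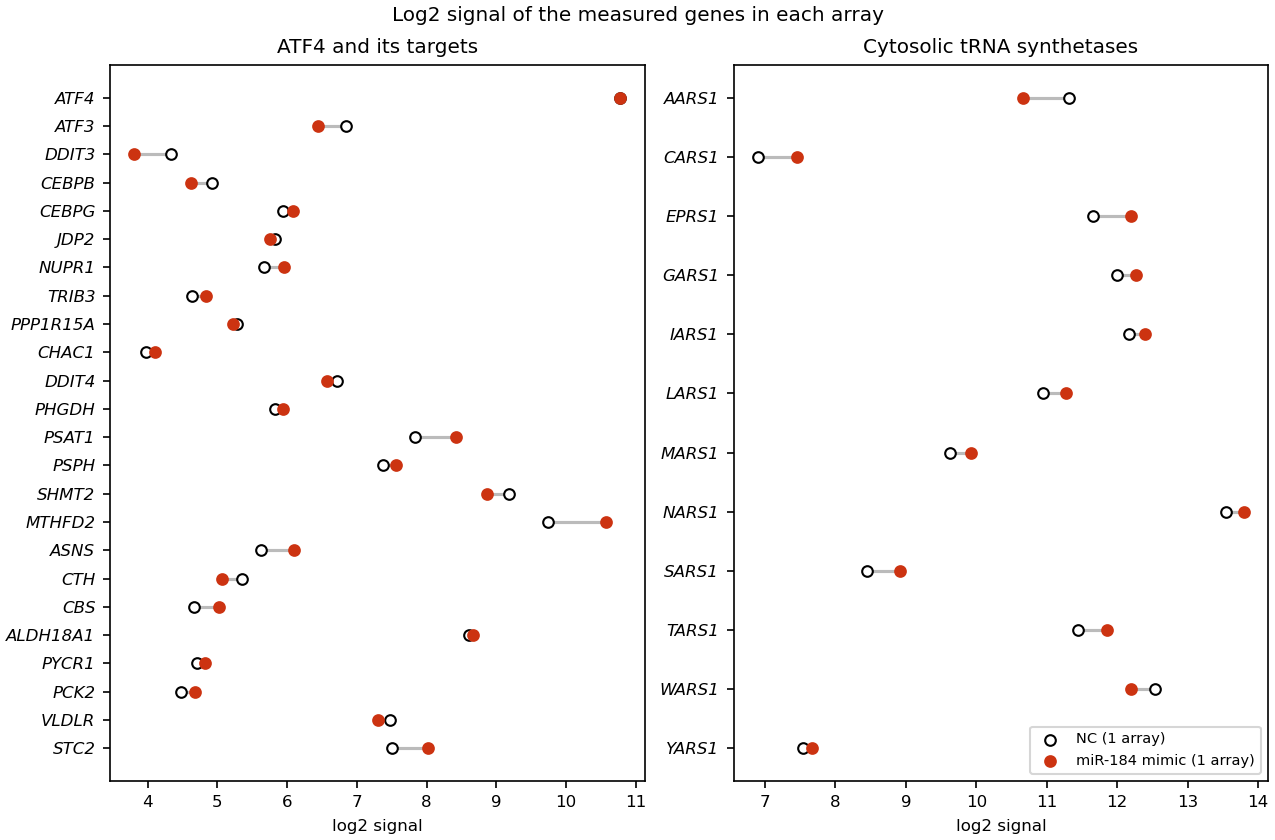
Log2 signal (horizontal axis) of the 36 measured genes in the NC array (open circles) and the miR-184 array (filled circles), 1 array each, with a line joining the pair. *MTHFD2* has the longest line to the right and *AARS1* the longest to the left, and the points of *ATF4* coincide. Positions of different genes are not comparable, since each has its own probes.

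**Figure D2:**
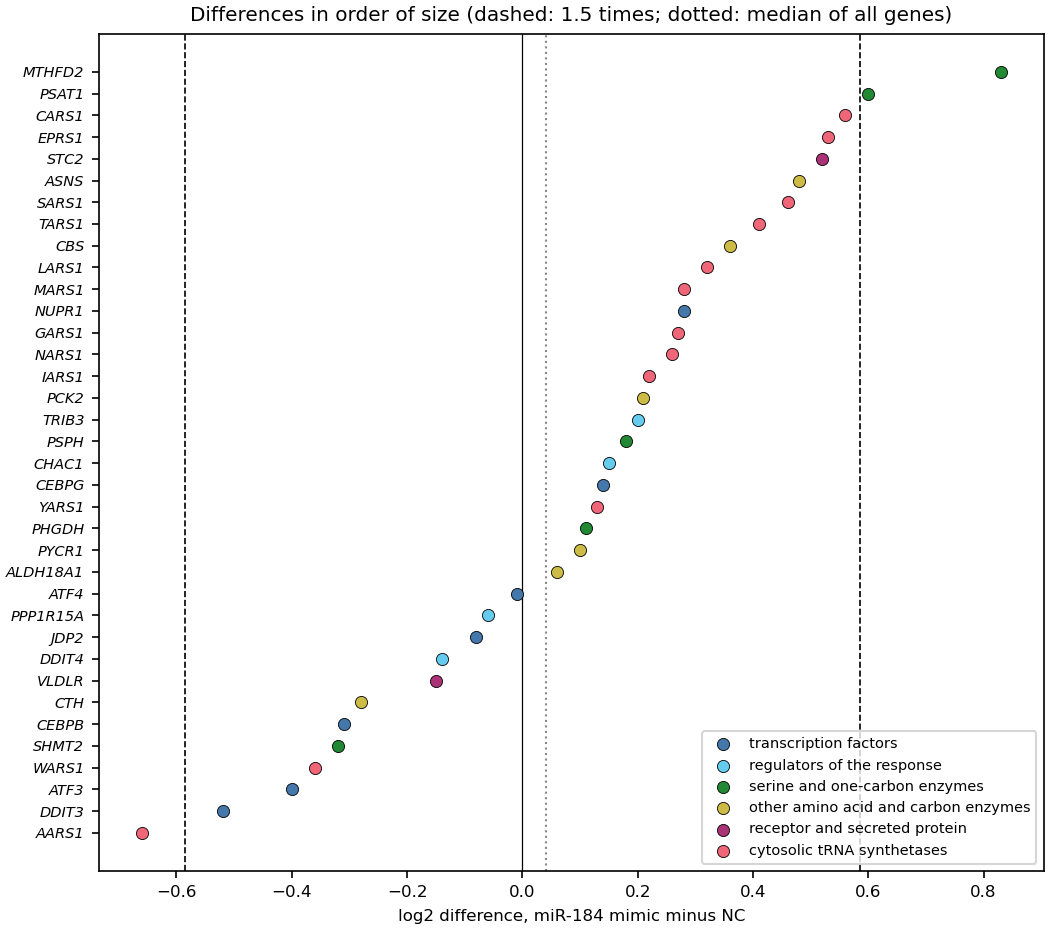
Log2 difference, miR-184 mimic minus NC, of the 36 genes in order of size, coloured by role. The dashed lines mark 1.5 times in either direction and the dotted line the median of all genes (0.04). *MTHFD2* and *PSAT1* lie past the upper dashed line, *AARS1* past the lower one, and 10 of the 12 tRNA synthetases lie right of 0.

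*ATF4* itself was the same in both arrays, at 10.77 with miR-184 and 10.78 with NC. Of the 7 factors measured 5 were below 0, and none passed 1.5 times in either direction. *DDIT3*, which encodes the stress factor CHOP, read 3.81 with miR-184 and 4.33 with NC, a difference of -0.52, at a mean signal below the median of all genes. Over all genes, 5.30% were as low or lower. In the lower part of the signal range, where differences spread less, 64 of 11184 genes were at least 1.5 times lower. *DDIT3* came short of that limit. *ATF3*, a stress-induced repressor, read 6.44 against 6.84 (-0.40), and *CEBPB*, a partner of ATF4 on DNA, 4.62 against 4.93 (-0.31). *JDP2*, a repressor related to ATF3, differed by -0.08. On the other side, *NUPR1*, a small chromatin protein induced by stress, read 5.95 against 5.67 (0.28), and *CEBPG*, another dimer partner of ATF4, differed by 0.14. The 7 factors had a median difference of -0.08, and 2 of them were above 0 (3 after quantile normalization or removal of the trend with signal, when *ATF4* moved to the other side of 0).

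The regulators of the response lay close to 0. *TRIB3*, a pseudokinase that restrains ATF4 and CHOP, read 4.83 with miR-184 and 4.63 with NC (0.20). *CHAC1*, which degrades glutathione, differed by 0.15 at a mean signal below the median of all genes. *PPP1R15A*, the GADD34 subunit that directs the removal of phosphate from eIF2, differed by -0.06. *DDIT4*, an inhibitor of mTORC1, read 6.57 against 6.71 (-0.14). Thus 2 were above 0 and 2 below, and the range was -0.14 to 0.20.

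The enzymes of serine and one-carbon metabolism held both genes past the upper threshold. *MTHFD2*, the mitochondrial enzyme that oxidizes methylene-tetrahydrofolate, read 10.57 with miR-184 and 9.74 with NC, a difference of 0.83 (1.78 times). It was the largest difference of the 36, and 1.52% of all genes were as high or higher. *PSAT1*, the aminotransferase of the middle step of serine synthesis, read 8.42 against 7.83, a difference of 0.60 (1.51 times), which 3.53% of genes reached. In the upper part of the signal range, where both genes lie, 6.24% of genes were at least 1.5 times higher. *PSAT1* lay so near the threshold that centring on the median (0.56) or removal of a trend with gene length (0.57) took it below. The enzymes before and after it in the same pathway differed less, *PHGDH* by 0.11 and *PSPH* by 0.18 (7.56 against 7.38). *SHMT2*, which splits serine in the mitochondrion to feed MTHFD2, was on the other side of 0, at 8.86 against 9.18 (-0.32). The 5 enzymes therefore ranged from -0.32 to 0.83, with 4 above 0.

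Further enzymes of the same metabolism were measured outside the set. *ALDH1L2*, the mitochondrial formyl-tetrahydrofolate dehydrogenase and a known ATF4 target, read 4.85 with miR-184 and 4.17 with NC, a difference of 0.68 (1.60 times). Its mean signal stood at percentile 53.5 of all genes, and its NC signal lay below their median of 4.24. The cytosolic counterparts *SHMT1* (-0.32) and *MTHFD1* (-0.13) and the *MTHFD2* paralog *MTHFD2L* (-0.04) were not higher. In the list of further one-carbon and glycine enzymes, which does not hold *ALDH1L2*, none of the 11 measured genes passed 1.5 times, and their median was -0.01 with a range of -0.32 to 0.21.

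Among the enzymes that make other amino acids, *ASNS*, the asparagine synthetase whose promoter core is printed above, read 6.10 with miR-184 and 5.62 with NC, a difference of 0.48 (1.39 times). *CBS*, which starts the conversion of homocysteine to cysteine, read 5.02 against 4.66 (0.36). *CTH*, which completes that conversion, went the other way at 5.07 against 5.35 (-0.28), so that the consecutive steps differed in sign. *PCK2*, the mitochondrial phosphoenolpyruvate carboxykinase, differed by 0.21, and the proline enzymes *PYCR1* and *ALDH18A1* by 0.10 and 0.06. Of these 6 enzymes 5 were above 0, none passed 1.5 times, and the median was 0.16. *STC2*, a secreted glycoprotein raised by ATF4, read 8.02 against 7.50 (0.52, 1.43 times). *VLDLR*, a lipoprotein receptor, read 7.31 against 7.47 (-0.15).

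Most of the cytosolic tRNA synthetases had small differences on the same side. Of 12 genes 10 were above 0, with differences from 0.13 to 0.56, and the median of all 12 was 0.28. Among all genes 55.4% were above 0, and 46.4% of those in the upper part of the signal range, where all 12 lie. The same 10 were above 0 under each other normalization tried, in which the median of the 12 ran from 0.24 to 0.36. None was 1.5 times higher in the values as deposited. *CARS1*, the cysteinyl enzyme, was nearest at 7.46 with miR-184 and 6.90 with NC (0.56, 1.47 times). Over all genes 4.14% were as high or higher, but in the upper part of the signal range 6.24% were already at least 1.5 times higher. *EPRS1*, the joint glutamyl and prolyl enzyme, read 12.19 against 11.65 (0.53). After quantile normalization *CARS1* (0.61), *EPRS1* (0.60) and *STC2* (0.59) passed the threshold beside *MTHFD2* and *PSAT1*, and *CARS1* (0.59) also did with the trend with signal removed. *SARS1*, the seryl enzyme, read 8.91 against 8.45 (0.46), and *TARS1*, the threonyl enzyme, 11.85 against 11.45 (0.41).

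The next 6 enzymes lay lower, from 0.32 to 0.13. *LARS1*, the leucyl enzyme that also reports leucine to mTORC1, read 11.28 against 10.95 (0.32). The methionyl, glycyl and asparaginyl enzymes *MARS1* (0.28), *GARS1* (0.27) and *NARS1* (0.26) had nearly the same difference. *IARS1*, the isoleucyl enzyme, read 12.40 against 12.17 (0.22), and *YARS1*, the tyrosyl enzyme, 7.67 against 7.54 (0.13), the smallest difference of the group.

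A pair of synthetases stood on the other side of 0. *AARS1*, the alanyl enzyme, read 10.66 with miR-184 and 11.32 with NC, a difference of -0.66 (1.58 times lower). Over all genes 3.29% were as low or lower, and in the upper part of the signal range 7.74% were at least 1.5 times lower. *AARS1* kept its place past the threshold under every normalization tried, between -0.70 and -0.63. The study lists *AARS1* among predicted miR-184 targets that it chose for being lower on these arrays, so its direction is not independent evidence. That choice also used a P-value, which 1 array per condition, as deposited, cannot give. The promoter window of *AARS1* holds the core. Of the 9 genes of the set with the core 7 were above 0 (median 0.26), *AARS1* and *ATF3* being the others. Of the 21 with a window but no core 12 were above 0 (median 0.11). These groups differ in make-up, since 6 of the 9 with the core are synthetases, which had a median of 0.28. Among synthetases with a window, the range was -0.66 to 0.56 with the core and -0.36 to 0.53 without it. Whether the core goes with the direction was not tested. *WARS1*, the tryptophanyl enzyme, which is also known as an interferon-induced gene, read 12.19 against 12.54 (-0.36), or -0.26 after quantile normalization. Its promoter window did not hold the core.

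**Figure D3:**
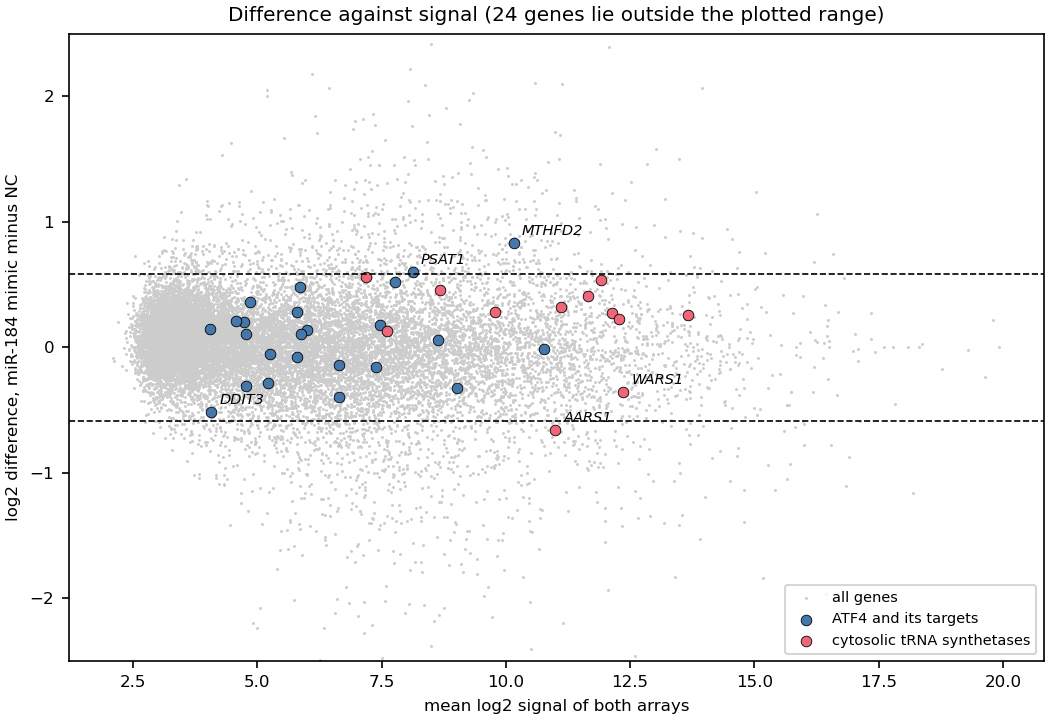
Log2 difference, miR-184 mimic minus NC (vertical axis), against the mean log2 signal of both arrays (horizontal axis), for all genes (grey), *ATF4* and its targets (blue) and the cytosolic tRNA synthetases (red). The dashed lines mark 1.5 times, and 24 genes lie beyond the plotted range of 2.5. The synthetases lie at mean signals where grey points spread on both sides of 0, and 10 of 12 are above it.

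The synthetases outside the set were compared by lists that were chosen with earlier results of these data known. Of 8 further measured genes of cytosolic synthetases and their complex 5 were above 0, none passed 1.5 times, and the median was 0.18. *RARS1*, the arginyl enzyme, read 14.00 with miR-184 and 13.56 with NC (0.44), *HARS1* differed by 0.36, *AIMP1*, a scaffold protein, by 0.30 and *KARS1* by 0.29. The alpha subunit of the phenylalanyl enzyme, *FARSA* (-0.39), and the glutaminyl enzyme, *QARS1* (-0.24), were below 0. *FARSB*, the partner subunit of *FARSA*, differed by -0.02. Of the 16 measured mitochondrial synthetases, which are encoded by separate genes apart from a few shared ones, 9 were above 0 and 7 below. Their median was 0.04, against 0.04 for all genes and -0.02 in the upper part of the signal range, where these enzymes lie. *HARS2*, the mitochondrial histidyl enzyme, was the only one of them past 1.5 times, at 6.47 against 7.07 (-0.60), and it was not past it after quantile normalization or removal of the trend with signal. The mitochondrial enzymes ranged from -0.60 to 0.42, and whether they differ from the cytosolic ones could not be tested.

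Several cytosolic synthetases are held in 1 large complex with scaffold proteins, a grouping made after the values had been seen. The members of the set in that complex (*EPRS1*, *LARS1*, *MARS1* and *IARS1*) were all above 0, from 0.22 to 0.53. With *KARS1*, *RARS1*, *QARS1* and *AIMP1*, 7 of the 8 measured genes of the complex were above 0, *QARS1* being the other, and the median was 0.30. The 8 synthetases of the set outside the complex had a median of 0.27 but a wider range, from -0.66 to 0.56, since both *AARS1* and *WARS1* belong to them.

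**Figure D4:**
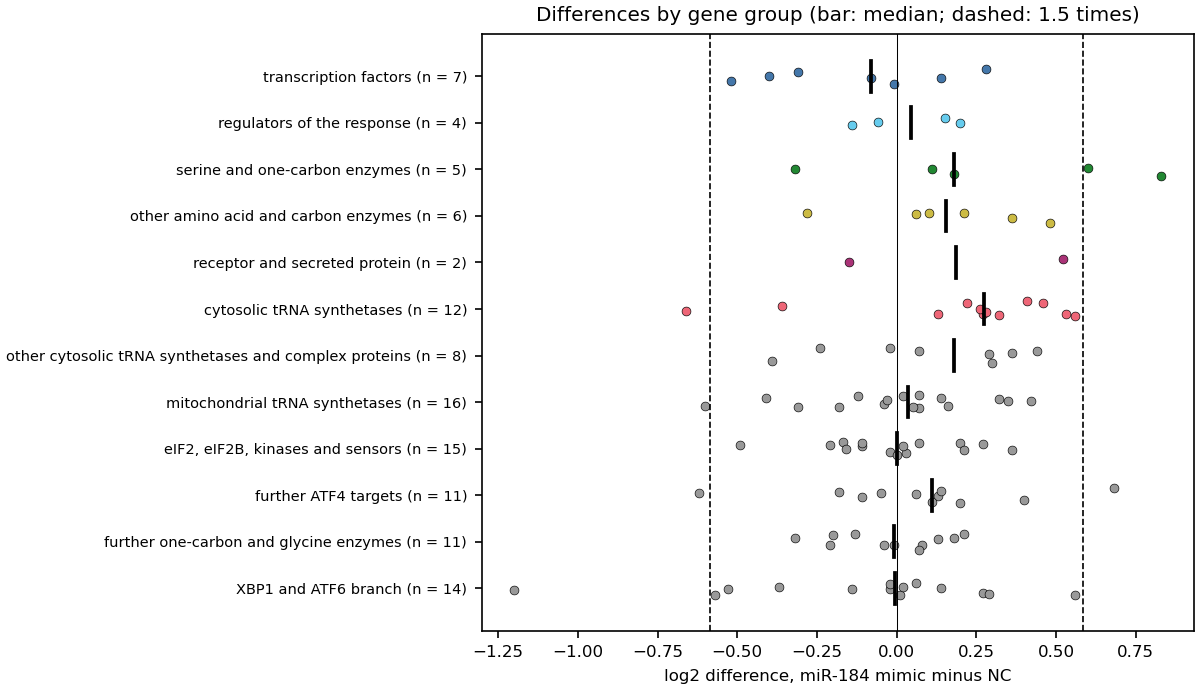
Log2 difference, miR-184 mimic minus NC (horizontal axis), of each measured gene in the 6 roles of the set (coloured) and in 6 lists outside it (grey), with the median of each list as a bar. The amino acid transporters (median -0.13) are not plotted. Dashed lines mark 1.5 times. The cytosolic tRNA synthetases have the highest median (0.28) of the plotted lists and the transcription factors the lowest (-0.08), and points are spread vertically only to separate them.

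The genes that act before ATF4 differed little. Of 15 genes of eIF2, its exchange factor eIF2B, its kinases and their partners none passed 1.5 times, and the median was 0.00. The lowest was *EIF2AK3*, which encodes PERK, the eIF2 kinase of the endoplasmic reticulum, at 7.71 with miR-184 and 8.20 with NC (-0.49). The kinase that senses amino acid shortage, *EIF2AK4* (GCN2), differed by 0.03, and its activator *GCN1* by 0.07. The subunit that is phosphorylated, *EIF2S1*, differed by 0.20. The other arms of the endoplasmic reticulum response, driven by XBP1 and ATF6, had a median of 0.00 over 14 genes, with *HERPUD1*, a factor of protein degradation, highest (0.56). As deposited, 1 of them was past 1.5 times, the chaperone *HYOU1*, at 9.40 against 10.60 (-1.20). *HERPUD1* joined it upwards after quantile normalization (0.63) or removal of the trend with signal (0.59), and the disulfide isomerase *PDIA4* downwards after centring (-0.61) or removal of the trend with gene length (-0.60).

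Of 11 further known ATF4 targets 7 were above 0, and the median was 0.11. Apart from *ALDH1L2*, the one past 1.5 times was *KLHL24*, a ubiquitin ligase adaptor, which was lower at 5.04 against 5.66 (-0.62). *VEGFA*, the angiogenic growth factor, differed by 0.40, *XPOT*, which exports tRNA from the nucleus, by 0.20 and *EIF4EBP1*, the brake on cap-dependent translation, by 0.14. *SESN2*, a sensor that inhibits mTORC1 when leucine is short, differed by 0.06. The secreted factors *FGF21*, *GDF15*, *INHBE* and *ADM2*, which ATF4 raises under stress, had mean signals below the median of all genes and differences from -0.11 to 0.13.

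The amino acid transporters that ATF4 raises, which the set leaves out, differed in both directions. *SLC7A11*, the cystine and glutamate exchanger, read 8.04 with miR-184 and 6.22 with NC (1.82). *SLC7A5*, the light chain of LAT1, read 9.15 against 13.94 (-4.79), the lowest difference of all genes. Its heavy chain *SLC3A2* read 8.45 against 9.32 (-0.87). Of 8 transporters 1 was at least 1.5 times higher and 3 were lower. The shares were 3.74% and 4.16% over all genes, and 6.24% and 7.74% in the upper signal range, where all 8 lie. The other lower one was the glycine transporter *SLC6A9*, at 5.27 against 6.48 (-1.20). The remaining 4 lay between, *SLC7A1* at 0.46, *SLC1A5* at 0.18, *SLC1A4* at -0.11 and *SLC38A2* at -0.15.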

How the data were processed

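RNA from 1 HCEC culture per condition was measured on arrays. According to the methods, the authors used the Affymetrix Human Transcriptome Array 2.0 with Command Console at default settings and Expression Console. The labels describe Agilent Cy3 labelling in its place, and Agilent Feature Extraction 9.1 stands in the submitters' processing notes, but the identifiers of the features belong to the Affymetrix array. The deposited values are log2 signals of 65854 features, normalized by the authors. They were used as deposited, and 1915 features have the same value in both arrays. The number of arrays limits the precision.

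A feature with exactly 1 symbol in the platform annotation named a gene (23730 features), and 303 symbols were updated by gene identifier or synonym to RefSeq GRCh38.p14. The feature with the highest mean signal stood for a gene. For the array annotation no genome build was found in the labels or methods, so coordinates are those of RefSeq sequences. Genes were counted at 1.5 times in either direction. With 1 array per condition no test was made. All 36 genes were accounted for. Both signals were given for each gene past 1.5 times and for the extremes of each role, and from lists outside the set up to 4 genes past the threshold, with other genes of those lists named after their values had been seen. The set and the lists were chosen with earlier results of these data known. The counting was tested on simulated data, with shifts well past the threshold. The simulated noise was below the SD of 0.46 over genes in the upper part of the signal range, which made correct calls easier. The trend removal was tested on a simulated trend, and the quantile normalization only on a constant shift of the NC values. The promoter search was not tested in this way. Calculations used Python 3.11.15, numpy 2.4.6, pandas 2.3.3 and statsmodels 0.14.6.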

Additional observations from a re-analysis of the deposited data

How the results depend on the processing

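The alternatives were quantile normalization, centring on the median, loess against signal (span 0.3), averaging features, 2 times as the threshold and a restriction to genes with a signal in the upper part of the range. Loess against gene length was an alternative chosen after seeing the data. At 2 times no gene of the set was higher (0) or lower (0), none of the synthetases was lower (0), and 303 genes were lower and 220 higher of 22368. The number of genes in the set at least 1.5 times higher, 2 as deposited, was 1 after centring, 1 without the length trend, 3 without the trend with signal and 5 after quantile normalization. *AARS1*, which the study lists, was the only lower synthetase, so leaving it out made that number 0 of 11 by construction. The 10 above 0 were not touched by this. The medians of the set (0.12 to 0.19), of the synthetases (0.24 to 0.36) and of the other 24 genes (0.07 to 0.11) stayed above 0 under each alternative. Under quantile normalization *IARS1* (0.33) and *WARS1* (-0.26) moved by over 0.1, and no other difference of the set moved by that much under any alternative. No paired analysis was possible because each condition has 1 array, and no array could be left out for the same reason.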
